A study of Rattus norvegicus with 58 samples.

Results

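M520 is an inbred laboratory rat strain. Its liver was represented by 2 arrays, those of the male M520 rats of replicate numbers 1 and 2, out of 58 arrays in the series. They were set against the mean of the other 5 inbred strains measured alongside it, ACI, BN, BUF, F344 and WKY, with 2 arrays each and so 10 arrays in all. The members were chosen by strain label alone, and no measured value entered the choice. All inbred rats were fasted males, killed when 17 weeks old, with no drug, diet or genetic manipulation named in the labels. The remaining 46 arrays were of an outbred population, the heterogeneous stock (HS), whose inbred founders include M520; 23 of these rats were glucose-intolerant and 23 glucose-normal. The HS rats were 17 weeks old as well. Their arrays are used below only to show where outbred rats lie between the levels of M520 and of the other strains.

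An inbred strain is homozygous at nearly every locus, so rats of 1 strain share their genotype while strains differ from each other at many genes. Liver transcripts that commonly differ between rat strains include those of drug-metabolising enzymes, which make foreign and endogenous compounds water soluble, and those of the RT1 locus, the rat major histocompatibility complex, whose products present peptides to T cells. A single gene can differ because of its own regulatory sequence or because of a regulator elsewhere, and an array of whole liver does not separate these.

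Values are log2 expression levels, so that a difference of 1 is a factor of 2 (written here as log2 units). Levels of one probe set, a group of probes for a transcript, were compared across strains only with that same probe set. The 2 M520 arrays correlated with each other at r = 0.994 over all probe sets, within the range of 0.989 (BUF) to 0.997 (ACI) for the replicate pairs of the other strains. M520 arrays correlated with arrays of ACI at 0.988, F344 at 0.986, BN at 0.983, BUF at 0.983 and WKY at 0.982 on average. Hepatocyte identity was plain: the mean level over 9 hepatocyte markers was 13.75 and 13.79 on the M520 arrays, against a lowest of 13.77, a median of 13.87 and a highest of 13.92 on the arrays of the other strains. Nothing in the labels ties replicates to their own litter or day, so a p-value here reflects array-to-array spread alone, which may be technical.

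M520 liver differed from the mean of the other strains at 790 of 14217 genes, or 5.56% of the genes measured (limma, Benjamini-Hochberg adjusted p under 0.05 over 31042 probe sets). Of these, 190 were higher (1.34% of genes) and 600 were lower (4.22%). Most differences were small: 52 of the higher and 65 of the lower genes differed by at least 1 log2 unit, and 7 higher and 8 lower genes by at least 2 units. Over all genes the median difference was -0.03, and 44.7% of genes had a difference above 0. When probe sets were split into 4 equal classes by their level in the other strains, the highest class held 161 higher and 453 lower in M520, while the lowest class held 82 higher and 7 lower. The number of calls depended on single arrays. In a fit without 1 M520 array the M520 level rests on a single array. A call lost there does not by itself show that a gene was unstable. With all 12 inbred arrays 1445 probe sets were called (4.65%), 588 of them higher (1.89%) and 857 lower (2.76%). This count was 230 without M520 array 1 (118 higher and 112 lower) and 319 without M520 array 2 (169 higher and 150 lower), so lower calls outnumbered higher ones in neither of these fits. It was 846 and 879 without ACI array 1 and 2, and 2296 without BUF array 1.

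**Figure D1:**
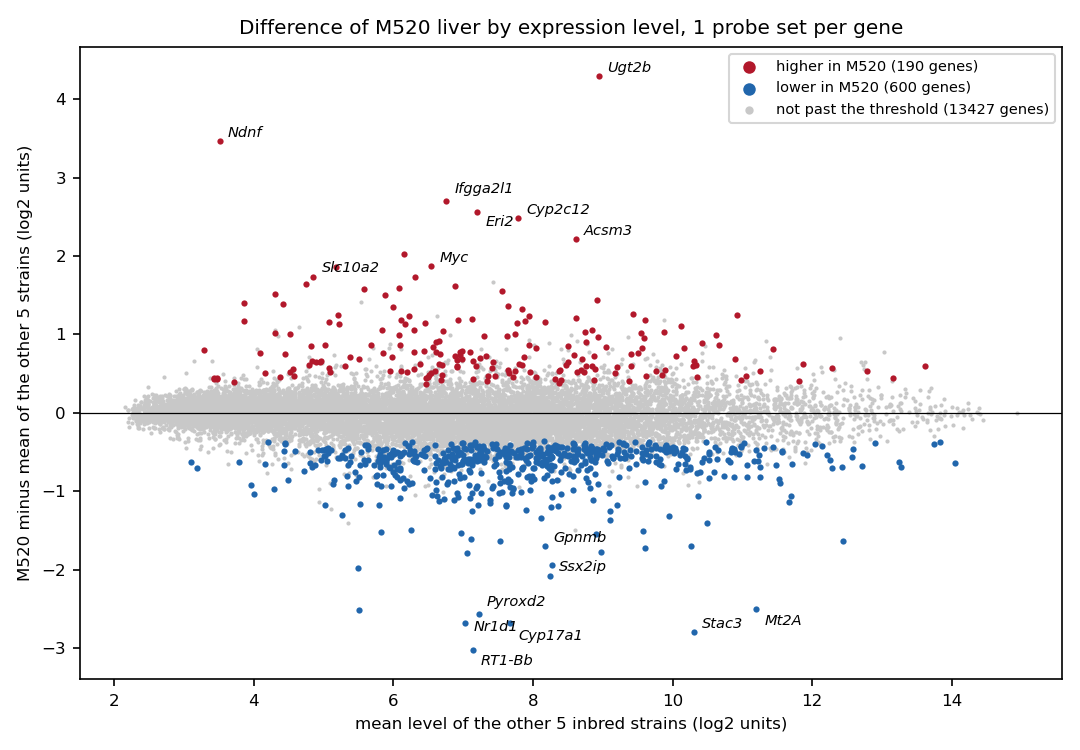
Each point is a gene, placed by the mean level of the other 5 inbred strains (x axis, log2 units) and by M520 minus that mean (y axis, log2 units). Red and blue points are the 190 higher and 600 lower genes past the threshold, and the widest differences, such as Ugt2b at 4.30, Ndnf at 3.47 and RT1-Bb at -3.03, are named.

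A difference from a mean can be carried by 1 or 2 of the other strains. Of the 790 called genes, 530 had both M520 arrays beyond all 10 arrays of the other strains, 103 of them above (0.724% of all genes) and 427 below (3% of all genes). Genes beyond all 10 without a call are not counted here, so these shares are not the rate of non-overlap over all genes. In the other 260 at least 1 M520 array lay within the range of the other strains. A stricter test asked whether M520 differed from each of the 5 strains in the same direction, taking the largest of the 5 pairwise p-values. It was passed by 11 probe sets (0.0354% of probe sets) and by 5 genes represented by their brightest probe set (0.0352% of genes): Ndnf, Pyroxd2, Ssx2ip, Gpnmb and Napsa.

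Ndnf, which encodes a secreted neuron-derived neurotrophic factor, stood furthest from all strains. Its level was 7.10 and 6.86 on the M520 arrays, against a lowest of 3.28, a median of 3.51 and a highest of 3.65 on the 10 arrays of the other strains. M520 lay far above the other 5 strains, whose means ran from 3.43 to 3.58. The difference was 3.47 ± 0.11 log2 units (SE), or 11.1-fold (limma, adjusted p = 1.8e-08 against the mean and 1.2e-06 for the test against each strain). In the HS rats Ndnf ran from 3.39 to 4.07, and no HS array was nearer to the M520 mean than to the mean of the other strains.

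Pyroxd2, which encodes a mitochondrial oxidoreductase-domain protein, had the largest negative difference of the 5 genes. M520 arrays read 4.64 and 4.66, against a lowest of 5.94, a median of 6.96 and a highest of 8.73 in the other strains. The nearest strain was BN, with a mean of 6.01, and M520 lay 1.36 units below it. The difference from the mean was -2.57 ± 0.13 (SE; limma adjusted p = 1.3e-06, and 0.023 against each strain). A second, dimmer probe set of Pyroxd2 gave -0.41 with an adjusted p of 0.066. The HS arrays ran from 6.98 to 8.39, with none nearer to M520.

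Ssx2ip, which encodes a centrosome and cell adhesion protein, read 5.98 and 6.36 in M520, against a lowest of 7.48, a median of 8.35 and a highest of 8.64 in the other strains. The groups did not overlap, and the difference was -2.08 ± 0.17 (SE; limma adjusted p = 6.8e-05, and 0.031 against each strain). Gpnmb, a membrane glycoprotein of macrophages and other phagocytic cells, read 6.59 and 6.35 in M520, against 7.62, 8.18 and 8.64 as the lowest, median and highest of the other arrays. Its difference was -1.70 ± 0.15 (SE; limma adjusted p = 9.9e-05, and 0.04 against each strain). Napsa, an aspartic protease, read 4.82 and 4.69 in M520, against 5.86, 6.21 and 6.63, a difference of -1.50 ± 0.14 (SE; limma adjusted p = 0.00022, and 0.043 against each strain). When M520 array 1 or 2 was left out, the difference from the mean was 3.35 and 3.59 for Ndnf and -1.56 and -1.43 for Napsa. The test against each strain was passed by fewer probe sets in other fits. It was passed by 6 with the spread taken over all 58 arrays and by 1 among brighter probe sets. These counts do not show which of the 5 genes kept it. Among the 46 HS arrays, 2 were nearer to M520 for Ssx2ip, 6 for Gpnmb and 13 for Napsa.

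The remaining 6 probe sets of the stricter test included a second probe set of Asrgl1, an asparaginase-like enzyme. It gave 6.20 and 6.22 in M520, against 7.62, 8.69 and 9.03 as the lowest, median and highest of the other arrays, a difference of -2.32. The brightest probe set of Asrgl1 gave -1.54 ± 0.13 (SE; limma adjusted p = 8.1e-05 against the mean, 0.47 against each strain), and the remaining probe set gave -0.07. A probe set of C17h5orf24 was higher by 1.86, while the brightest probe set of that gene differed by 0.16 (limma adjusted p = 0.53). The other 4 probe sets carry no gene symbol, with differences of 2.34, 1.98, 1.29 and -2.20.

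**Figure D2:**
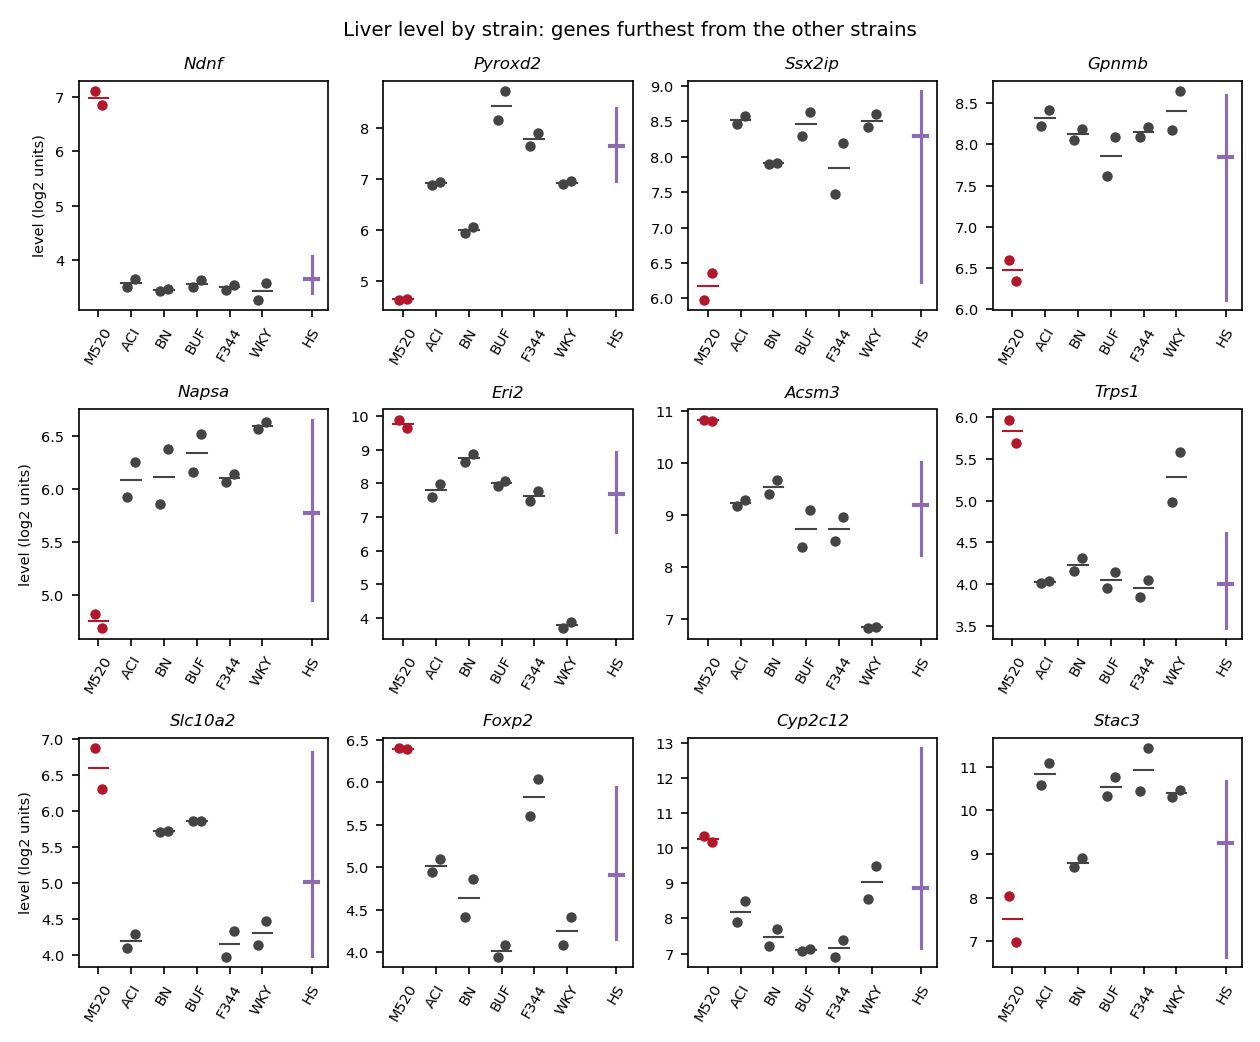
Levels (y axis, log2 units) of 12 genes by strain (x axis). Points are single arrays, 2 per strain, short lines are strain means, M520 is red at the left, and the purple bar at the right spans the lowest to the highest of 46 HS arrays with a tick at the median. The M520 arrays lie beyond all 10 arrays of the other strains in each panel, from 7.10 and 6.86 for Ndnf to 8.03 and 6.98 for Stac3.

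The 24 genes with the largest differences among those where both M520 arrays lay beyond all 10 others were 12 higher and 12 lower. These 24 genes were chosen with M520 beyond every other array, so pairwise tests on the same values are no separate support. By the 5 pairwise tests, each adjusted on its own, 11 of the 24 differed from all 5 strains. Of all 790 called genes, 35 did so. When either M520 array was left out, 20 of the 24 stayed past the threshold. The exceptions were Myc, Gstm3, Mt1 and Mt2A. The higher genes beside Ndnf included Slc10a2, the sodium-dependent bile acid transporter, with 6.87 and 6.31 in M520, against a lowest of 3.98, a median of 4.40 and a highest of 5.86 in the other strains. BUF and BN stood above the other 3 strains, and M520 lay 0.73 above BUF without passing the pairwise test (limma adjusted p = 0.054). The difference from the mean was 1.74 ± 0.15 (SE; limma adjusted p = 9.5e-05).

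Foxp2, a forkhead transcription factor, read 6.40 on both M520 arrays, against 3.95, 4.64 and 6.04 as the lowest, median and highest of the other arrays. F344 was nearest, and the difference from the mean was 1.65 ± 0.15 (SE; limma adjusted p = 0.00011). Trps1, a zinc-finger repressor, read 5.97 and 5.69, against 3.85, 4.10 and 5.58, a difference of 1.52 ± 0.14 (SE; limma adjusted p = 0.00018). Further probe sets of Trps1 gave 1.62 and 1.10 with limma adjusted p-values of 0.00094 and 0.00027, and another gave 0.88 with 0.054. No HS array was nearer to M520 for Trps1. Myc, the growth-promoting transcription factor, read 8.50 and 8.32, against 5.03, 6.98 and 7.74. Its difference of 1.88 ± 0.43 (SE; limma adjusted p = 0.031) had the widest error of the 24 genes bar Mt2A, and its adjusted p was 0.26 and 0.19 without M520 array 1 and 2. The call of Myc was also lost without either ACI array, without BN array 2, without both F344 arrays and with a trended, robust variance.

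Stac3, an adaptor protein known from the excitation-contraction coupling of muscle, had the largest negative difference of the genes with both M520 arrays beyond all others. It read 8.03 and 6.98 in M520, against 8.70, 10.46 and 11.43 as the lowest, median and highest of the other arrays. The difference was -2.80 ± 0.27 (SE; limma adjusted p = 0.00024). C6, a terminal complement component, read 7.79 and 7.98 in M520, against 8.15, 9.88 and 11.10, a difference of -1.72 ± 0.13 (SE; limma adjusted p = 4.2e-05). BUF, with a mean of 8.22, was close to M520 and did not differ from it by the pairwise test (limma adjusted p = 0.28). A probe set annotated to the Mir23b locus, which does not measure the mature miRNA, gave 5.68 and 5.19 in M520, against 6.41, 6.99 and 7.73.

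After Ndnf, Pyroxd2, Ssx2ip, Gpnmb and Napsa, the genes nearest to passing the test against each strain were Eri2 and Acsm3 (described with their neighbours below, limma adjusted p = 0.15 and 0.14) and Plaat3, a phospholipase of lipid metabolism, which was lower by 1.37 (0.15). Gulo, the last enzyme of vitamin C synthesis, read 10.70 and 10.58 in M520, against 11.36, 11.72 and 11.99 in the other strains, a difference of -1.06 (limma adjusted p = 0.00076 against the mean, 0.29 against each strain). Copz2, a coat protein subunit of Golgi vesicles, read 6.58 and 6.92, against 7.52, 7.71 and 8.03, and no HS array was nearer to M520. Isyna1, which makes inositol, Nrg1, a growth factor, Lrrc8c, a volume-regulated anion channel subunit, and Adam22 were higher by 1.34, 1.25, 1.20 and 1.13.

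By pairwise tests, M520 differed from F344 at 345 genes (2.43%), from ACI at 339 (2.38%), from BUF at 851 (5.99%), from BN at 895 (6.3%) and from WKY at 1028 (7.23%). Over all probe sets the counts in the same order of strains were 679 (2.19%), 714 (2.3%), 1544 (4.97%), 1639 (5.28%) and 1836 (5.91%). These 5 comparisons share the M520 arrays. The order of the strains changed with single arrays: without BUF array 2, 268 probe sets were called against BUF, 821 against ACI and 918 against F344.

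Some of the largest differences were at genes where other strains shared the M520 level or 1 strain set the mean. The largest difference of all was of this kind and was singled out after its values were seen: Ugt2b, a steroid and drug glucuronosyltransferase. It read 13.19 and 13.29 in M520, against a lowest of 5.14, a median of 7.28 and a highest of 13.46 in the other strains. BN and BUF had means of 13.23 and 13.39, while ACI and WKY had 5.59 and 5.29, and the 2 F344 arrays differed from each other. The difference from the mean was 4.30 ± 0.54 (SE; limma adjusted p = 0.0012), and M520 differed from BN by 0.01 (limma adjusted p = 0.998). In HS rats the Ugt2b level ran from 4.80 to 13.66 with a median of 13.18.

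Ifgga2l1, a member of an interferon-inducible GTPase family, read 9.46 and 9.44 in M520, against 4.93, 6.13 and 9.42 as the lowest, median and highest of the other arrays. ACI had a mean of 9.29, BN 8.33, WKY 6.13, F344 5.04 and BUF 4.95. M520 was 2.70 ± 0.10 above the mean (SE; limma adjusted p = 5.6e-08) and 0.16 above ACI (limma adjusted p = 0.62), and 45 of 46 HS arrays were nearer to M520. Cyp4v3, a fatty acid hydroxylase, was called higher in M520 by 1.11 ± 0.09 (SE; limma adjusted p = 5.8e-05). Here M520 read 11.17 and 11.28, and 4 of the other strains had means of 11.15 to 11.41, while F344 had 5.33. Without the F344 arrays the difference was -0.08 (limma adjusted p = 0.70), so F344 and not M520 set this call. Sort1, a sorting receptor that binds lipoproteins, was called lower by 0.66 in the same manner, with 7.06 and 6.95 in M520 and a BUF mean of 9.58, and it lost its call without the BUF arrays.

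Cyp17a1, the steroid 17-alpha-hydroxylase, read 5.05 and 4.93 in M520, against 5.54, 6.86 and 12.24 as the lowest, median and highest of the other arrays. Both M520 arrays were below every other array, and the difference from the mean was -2.68 ± 0.31 (SE; limma adjusted p = 0.00076). BN had a mean of 12.15, and without the BN arrays the difference was -1.56 (limma adjusted p = 0.033). Against BUF, the nearest strain, M520 was lower by 1.24 without passing the pairwise test (limma adjusted p = 0.099). Nqo1, a quinone reductase, read 6.86 and 7.54 in M520, with BN at 7.49 and F344 at 7.66 close by and ACI at 10.33 and BUF at 10.16 far above. Its difference from the mean was -1.77 ± 0.20 (SE; limma adjusted p = 0.00062).

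**Figure D3:**
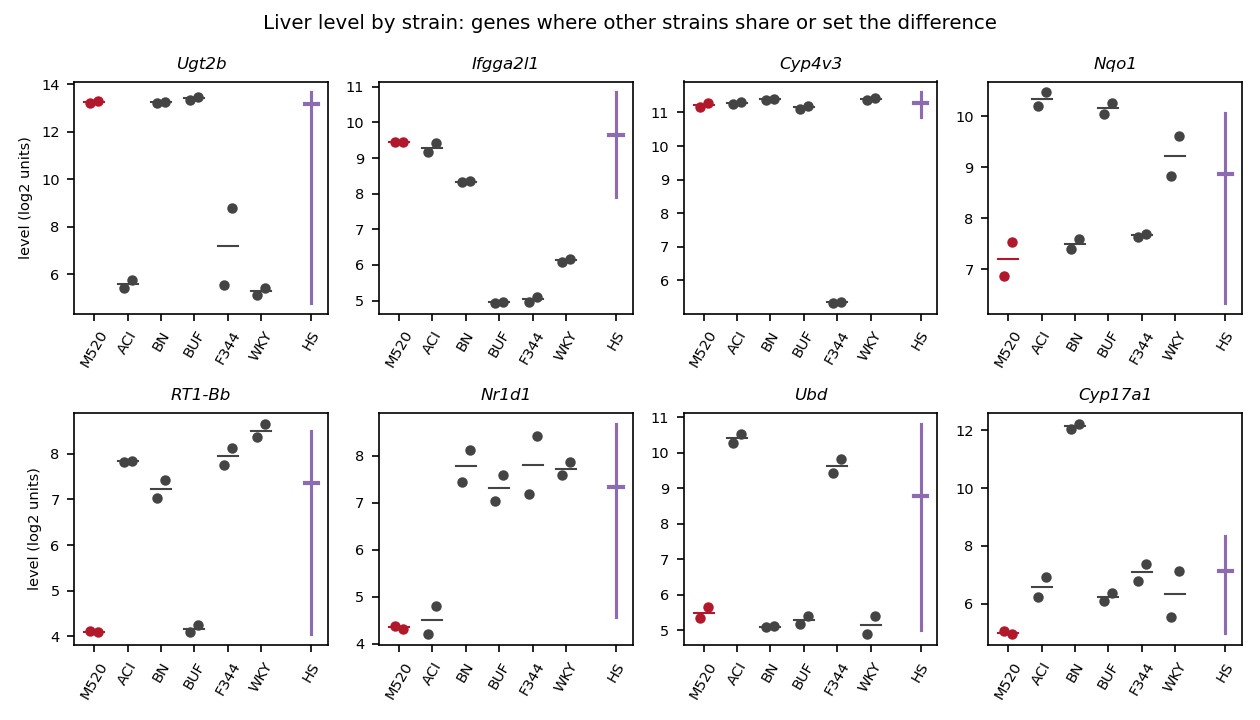
Levels (y axis, log2 units) by strain (x axis) of 8 genes. Another strain shares the M520 level or 1 strain sets the mean, except at Cyp17a1. There BN is highest, but both M520 arrays lie below every other inbred array. Points are single arrays, short lines strain means, M520 is red at the left, and purple bars span the 46 HS arrays with a tick at the median. M520 lies with BN and BUF near 13.2 for Ugt2b, with BUF near 4.1 for RT1-Bb, and F344 alone is low, at 5.33, for Cyp4v3.

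Genes past the threshold lay next to each other in places. In the order of measured genes along the GRCr8 chromosomes there were 9 runs of 3 or more neighbouring called genes, the longest of 5. Some runs held both higher and lower genes, among them Dennd2b, Akip1 and Ascl3, and Vamp5, Vamp8 and Ggcx. The number of runs expected at the share of genes called was not worked out. On chromosome 1, Thumpd1, Eri2 and Acsm3 were neighbours and all higher in M520. Eri2, an exoribonuclease-domain protein, read 9.89 and 9.64 in M520, against 3.70, 7.86 and 8.86 as the lowest, median and highest of the other arrays, a difference of 2.57 ± 0.13 (SE; limma adjusted p = 1.5e-06). A second probe set of Eri2 gave 0.26 (limma adjusted p = 0.37). Acsm3, a medium-chain acyl-CoA synthetase of mitochondria, read 10.83 and 10.81, against 6.82, 9.02 and 9.67, a difference of 2.21 ± 0.17 (SE; limma adjusted p = 4.2e-05). WKY was the lowest strain for both, with means of 3.80 for Eri2 and 6.83 for Acsm3, and M520 was above BN, the nearest strain, by 1.02 and 1.29. Thumpd1, an RNA acetylation cofactor, was higher by 0.95. The related synthetase genes just before them moved in both directions: Acsm5 was higher by 1.55 and RGD1559600 by 0.98, Acsm2 was lower by 1.64, and Acsm1 differed by -0.01 (limma adjusted p = 0.96). These Acsm genes are paralogs, and cross-hybridisation between their probe sets was not tested.

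On chromosome 5, Tp53inp1, a stress-induced p53 target involved in autophagy, was higher with its neighbours Ccne2, a cyclin, and Dpy19l4. Tp53inp1 read 7.18 and 7.14 in M520, against 5.02, 5.40 and 6.44, a difference of 1.59 ± 0.15 (SE; limma adjusted p = 0.00017), while Ccne2 and Dpy19l4 were higher by 0.50 and 0.45. On chromosome 10, Slc25a10, Gcgr, P4hb and Alyref were lower by 0.42 to 0.60. Gcgr is the glucagon receptor, through which fasting signals reach hepatocytes, and its difference was -0.42 (limma adjusted p = 0.025). On chromosome 2, the guanylate-binding protein genes Gbp7, Gbp4 and Gbp2 were lower, with Gbp7 by 1.94. For Gbp7 the M520 arrays did not both lie below all arrays of the other strains.

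**Figure D4:**
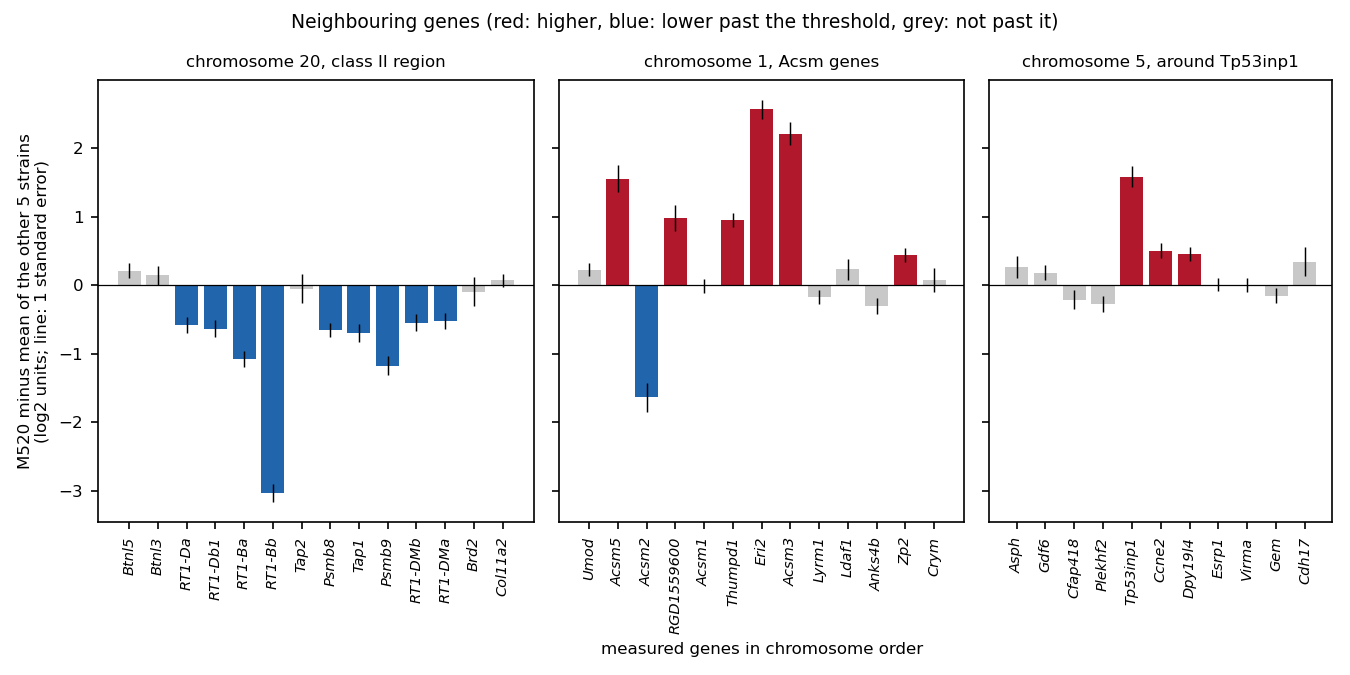
Difference of M520 from the mean of the other 5 strains (y axis, log2 units, lines 1 standard error of the fit) for genes in chromosome order (x axis) in 3 stretches. From RT1-Da to RT1-DMa on chromosome 20, 9 of 10 measured genes were lower past the threshold (blue). On chromosomes 1 and 5, red bars mark runs of higher genes, the tallest being Eri2 at 2.57.

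The longest stretch was the class II region of the RT1 complex on chromosome 20. Class II molecules are pairs of alpha and beta chains on antigen-presenting cells that show peptides to helper T cells. From RT1-Da to RT1-DMa 10 genes were measured, all 10 had a difference below 0, and 9 were past the threshold. A Y box, an inverted CCAAT motif bound by the factor NF-Y, is a shared element of class II promoters. These windows upstream of the 4 class II chain genes of the stretch are shown because the genes stood together in M520. Each is 80 bases of the gene's own strand from RefSeq GRCr8, 5′ to 3′, with the searched letters TGATTGG (on either strand) in capitals.
RT1-Da (chr20:4515311-4515390, + strand): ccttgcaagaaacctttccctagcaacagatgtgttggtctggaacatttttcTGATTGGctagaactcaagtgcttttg
RT1-Db1 (chr20:4560218-4560297, - strand): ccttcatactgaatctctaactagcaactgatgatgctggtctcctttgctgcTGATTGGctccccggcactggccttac
RT1-Ba (chr20:4576959-4577038, + strand): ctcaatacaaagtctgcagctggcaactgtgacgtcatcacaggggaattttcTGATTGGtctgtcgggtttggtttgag
RT1-Bb (chr20:4604155-4604234, - strand): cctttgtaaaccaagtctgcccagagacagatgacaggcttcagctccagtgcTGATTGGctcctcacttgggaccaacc
The windows were placed around the first match, so each holds the letters by construction. All 4 of these promoters have a match within 250 bases before the start, as do 6.42% of the 33469 promoters in the RefSeq table. The sequences are of the reference genome and not of M520.

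RT1-Bb, a class II beta chain, read 4.11 and 4.10 in M520, against 4.09, 7.80 and 8.66 as the lowest, median and highest of the other arrays. BUF was as low as M520, with a mean of 4.17, and the other 4 strains had means of 7.22 to 8.51. The difference from the mean was -3.03 ± 0.13 (SE; limma adjusted p = 2.8e-07), and M520 was 0.07 below BUF (limma adjusted p = 0.87). A second, dimmer RT1-Bb probe set gave 0.33 (limma adjusted p = 0.11). In HS rats 4 of 46 arrays were nearer to the M520 level of RT1-Bb. RT1-Ba, a class II alpha chain, read 7.29 and 7.09 in M520, against 7.19, 8.15 and 9.38, a difference of -1.08 ± 0.12 (SE; limma adjusted p = 0.00049). Of the 3 other RT1-Ba probe sets, one was higher in M520 by 2.25 (limma adjusted p = 9.4e-05) and 2 gave -0.31 and -0.23 without a call, so no single direction held for this gene. RT1-Da and RT1-Db1 were lower by 0.57 and 0.63, and the peptide-loading genes RT1-DMa and RT1-DMb by 0.52 and 0.55. Other strains shared these levels. BN had means of 8.65 for RT1-Da and 8.32 for RT1-Db1, against 8.58 and 8.11 in M520. ACI was lower than M520 for RT1-DMa (5.64 against 5.70) and RT1-DMb (6.61 against 6.96). Tap1, which carries peptides into the endoplasmic reticulum, read 7.11 and 7.16 in M520 against 7.35, 7.82 and 8.33, a difference of -0.70. RT1 genes form a multigene family, and how well the probes match each strain's alleles was not tested.

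Over the whole list of histocompatibility and antigen presentation genes, 11 of 26 measured members were lower and 1 was higher, against 4.22% lower and 1.34% higher of all genes. The median difference was -0.35 (-0.03 over all genes). Without M520 array 1, 3 members were called lower, and 3 without array 2. With the spread taken over all 58 arrays or under the other fits of all 12 arrays, the number lower was between 4 and 12, and it was 6 without the WKY arrays. The member called higher was RT1-T24-4, by 1.15. Ciita, the master activator of class II genes, differed by -0.36 (limma adjusted p = 0.22), and B2m, the light chain of class I molecules, by 0.32 (limma adjusted p = 0.089).

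Macrophages are among the cells that carry class II molecules. Of 13 measured Kupffer cell and macrophage markers, 12 were below 0 in M520 with 4 called lower (Clec4f, Lyz2, C1qa and Aif1), and the median difference was -0.57. Of all genes 4.22% were called lower, and 44.7% had a difference above 0. The mean level over these markers was 8.48 and 8.32 on the M520 arrays, against 8.49, 8.84 and 9.67 as the lowest, median and highest of the other strains. Clec4f, a lectin of Kupffer cells, differed by -0.80 and was close to BUF, and Lyz2, macrophage lysozyme, by -0.82. None of the 4 stayed past the threshold when either M520 array was left out, and 1 was called without the WKY arrays. Of 14 endothelial markers 13 were below 0, with Vwf lower by 1.08 and Stab2 by 0.78, and a median of -0.35. No endothelial marker was called without either M520 array or without the BN arrays. The mean level of the endothelial markers was 7.95 and 7.63 in M520, against 7.81, 8.12 and 8.61. Lymphocyte markers had a median of -0.08 with no call in 14. In whole liver, fewer cells of a type and less RNA per cell cannot be told apart, and the part these markers have in the class II and interferon results was not tested.

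Interferons are released on sensing viruses and raise a broad set of antiviral genes. Of 40 measured members of this list 10 were lower and 2 higher, with a median of -0.24, against 4.22% lower and 1.34% higher of all genes. Neither higher member was called without either M520 array, and the number lower was 2 without M520 array 1 and 5 without array 2, and 5 without the WKY arrays, and between 2 and 11 under other fits. Psmb9, an immunoproteasome subunit of the RT1 region, read 8.07 and 7.98 in M520, against 8.44, 9.27 and 10.21, a difference of -1.18 ± 0.14 (SE; limma adjusted p = 0.00081). Psmb8, the neighbouring subunit, was lower by 0.66. Gbp4 read 3.70 and 3.84, against 4.07, 4.39 and 4.86, and was lower by 0.66 (limma adjusted p = 0.0031). Ubd, a ubiquitin-like protein induced by cytokines, was lower by 1.61, but here ACI (10.41) and F344 (9.62) stood apart and M520, at 5.34 and 5.67, lay with BN, BUF and WKY. Irgm and Igtp, interferon-inducible GTPases, were the 2 higher members, by 0.72 and 0.65. Ifgga2l1, of an interferon-inducible GTPase family and higher by 2.70, is not on this list. Classical interferon-stimulated genes such as Ifit1 (0.05), Isg15 (-0.39) and Rsad2 (-0.14) did not pass the test. Mx2 differed by 0.04 at its brightest probe set and by -1.45 at another (limma adjusted p = 9.9e-05). At that other probe set WKY (9.05) and ACI (5.70) stood apart, and M520, with a mean of 3.60, lay with BN, BUF and F344. None of the 30 constitutive proteasome subunits was called.

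Metallothioneins, small cysteine-rich proteins that bind zinc and copper, are induced by metals and by glucocorticoids. Mt1 and Mt2A, neighbours on chromosome 19, were among the 12 lowest genes of M520. Mt1 read 5.0 and 5.55 in M520, against 5.95, 7.11 and 8.24 as the lowest, median and highest of the other arrays, a difference of -1.78 ± 0.25 (SE; limma adjusted p = 0.0025). Mt2A read 8.17 and 9.23, against 9.43, 11.13 and 12.97, a difference of -2.50 ± 0.47 (SE; limma adjusted p = 0.014). Every M520 array lay below every other inbred array for both genes, while F344, the nearest strain, did not differ from M520 by the pairwise test (limma adjusted p = 0.098 for Mt1 and 0.39 for Mt2A). Without M520 array 1 the adjusted p was 0.084 for Mt1 and 0.23 for Mt2A, and without array 2 it was 0.021 and 0.059.
The 250 bases before the start of each gene are shown because both genes moved together; they are from RefSeq GRCr8, 5′ to 3′ on the gene's own strand, with the core of the metal response element (TGCACNC or TGCGCNC, on either strand) in capitals.
Mt1 (chr19:10832976-10833225, - strand): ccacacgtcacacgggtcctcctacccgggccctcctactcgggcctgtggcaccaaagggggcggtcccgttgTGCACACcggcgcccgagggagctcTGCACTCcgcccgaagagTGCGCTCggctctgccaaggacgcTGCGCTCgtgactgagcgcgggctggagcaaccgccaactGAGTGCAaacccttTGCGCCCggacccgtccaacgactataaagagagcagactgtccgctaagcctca
Mt2A (chr19:10838709-10838958, - strand): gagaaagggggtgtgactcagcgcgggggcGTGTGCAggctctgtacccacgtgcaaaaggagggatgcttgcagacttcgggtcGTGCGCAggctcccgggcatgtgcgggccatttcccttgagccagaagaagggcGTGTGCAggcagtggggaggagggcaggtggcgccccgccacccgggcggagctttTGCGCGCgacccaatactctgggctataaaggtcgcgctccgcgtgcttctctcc
The core occurs 6 times before Mt1 and 4 times before Mt2A. Of the 33469 promoters in the table, 20.6% hold it at least 1 time in the same length, 0.266% at least 4 times and 0.0269% at least 6 times.

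Of 17 measured glucocorticoid targets, a list that holds both metallothioneins, 3 were lower (4.22% of all genes) and none was higher, with a median of -0.11. Without M520 array 1 none was called, and without array 2, 1 was called lower and 1 higher. The third was Fkbp5, a chaperone of the glucocorticoid receptor and one of its most responsive targets, with 6.10 and 6.36 in M520, against 6.36, 7.05 and 9.01 in the other strains. Its difference of -1.15 ± 0.25 (SE; limma adjusted p = 0.027) was not past the threshold without the BN arrays, whose mean was 8.83, nor without either M520 array. Other targets did not pass, among them Tat (-0.14), Tsc22d3 (0.69), Dusp1 (1.19) and Per1 (0.44).

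Enzymes that oxidise, reduce or hydrolyse drugs, aldehydes and lipids differed in both directions. Outside the cytochromes P450, 6 of 30 phase 1 enzymes were higher and 2 lower, with a median of -0.04, against 1.34% higher and 4.22% lower of all genes. The same shares of all genes are those against which several counts below are to be read. These are the counts of the P450s, transferases, targets of the transcription factor NRF2, transporters, steroid and bile acid genes, and clock genes. Adh4, an alcohol dehydrogenase of retinol metabolism, read 9.30 and 9.02 in M520, against 6.02, 7.34 and 9.51, a difference of 1.32 ± 0.16 (SE; limma adjusted p = 0.0012), with BN (9.20) and BUF (9.34) at the M520 level. Ephx2, the soluble epoxide hydrolase, was higher by 1.26, with ACI (7.81) and WKY (7.38) low and the other strains near M520. Aldh1a1, a retinaldehyde dehydrogenase, was higher by 1.25. Aox1, Ces1d and Cbr1 were higher by 0.68, 0.53 and 0.48. Ces1c, a carboxylesterase, read 12.59 and 12.64 in M520, against 13.08, 13.21 and 13.50, a difference of -0.63 ± 0.08 (SE; limma adjusted p = 0.0019), and differed from each of the 5 strains by the pairwise tests taken singly. No HS array was nearer to M520 for Ces1c. Aldh1b1 was lower by 0.93. Of the phase 1 enzymes, 1 was called higher and none lower without M520 array 1, 2 were called higher and 2 lower without array 2, and the number higher was between 1 and 7 under the other fits.

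Cytochromes P450 of families 1 to 3, the main drug oxidases, had 3 higher and 3 lower of 32 with a median of 0.06. Cyp2c12, the steroid sulfate hydroxylase known as a female-predominant form in rat liver, read 10.36 and 10.19 in these M520 males, against 6.91, 7.54 and 9.51 in the other strains. It was 2.49 ± 0.23 above the mean (SE; limma adjusted p = 0.00015) and 1.25 above WKY, the nearest strain (limma adjusted p = 0.032). The male-predominant forms Cyp2c11 and Cyp2c13 differed by 0.11 and 0.00 (limma adjusted p = 0.69 and 0.9996), and Cyp3a2 was higher by 0.60. HS males ranged from 7.16 to 12.84 for Cyp2c12, and 17 of 46 were nearer to M520. Cyp3a9 and Cyp2u1 were lower by 1.14 and 1.01. Without either M520 array 1 P450 was called higher and 1 lower. The P450 of ethanol, Cyp2e1, differed by 0.01.

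Glutathione transferases, which couple glutathione to reactive compounds, had 1 member higher and 5 lower of 21, with a median of -0.06. Gstm3 read 8.59 and 7.48 in M520, against 5.86, 6.12 and 7.25, a difference of 1.73 ± 0.24 (SE; limma adjusted p = 0.0024), with BN highest among the others at 7.16. Its adjusted p was 0.053 without M520 array 1. Mgst2, a microsomal form, read 10.10 and 10.02, against 10.46, 10.93 and 11.08, a difference of -0.82 ± 0.11 (SE; limma adjusted p = 0.0018). Gstk1, Gstp3, Gstz1 and Gstt2 were lower by 0.85, 0.69, 0.54 and 0.47. Without M520 array 1, 1 of the transferases was called lower, and 2 without array 2. Among 19 targets of NRF2, the transcription factor of the oxidative stress response, 2 were higher (Me1 by 1.01, Abcc4 by 0.86) and 3 lower (Nqo1, Abcc2 and Pgd), while Gclc, Gclm, Hmox1 and Srxn1 did not pass the test, with differences of 0.43, -0.20, -0.18 and 0.12. The number of these targets called lower was 1 without either M520 array and 0 with the spread taken over all 58 arrays. Me1 had a limma adjusted p of 0.081 without M520 array 1.

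Among 16 transporters of organic ions, 1 was higher and 4 were lower. Abcc4, an efflux pump of conjugates and nucleotides, read 6.46 and 6.63 in M520, against 5.09, 5.62 and 6.25, a difference of 0.86 ± 0.10 (SE; limma adjusted p = 0.001). Abcg2, Slc22a7, Slco2a1 and Abcc2 were lower by 0.82, 0.58, 0.54 and 0.53, and none of the 4 was past the threshold without either M520 array.

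Steroid-metabolising genes had 1 member higher and 3 lower of 16. Hsd17b2, which inactivates oestradiol and testosterone, read 8.69 and 8.43 in M520, against 9.61, 9.96 and 11.91 as the lowest, median and highest of the other arrays. The difference was -1.70 ± 0.20 (SE; limma adjusted p = 0.00076), and M520 was 1.19 below ACI, the nearest strain (limma adjusted p = 0.037). Cyp17a1 was described above, and Serpina6, the plasma carrier of corticosterone, was lower by 0.71. Akr1d1, a reductase of steroids and bile acid precursors, read 12.25 and 12.24, against 10.58, 11.48 and 11.96, and was higher by 0.81. Bile acid synthesis and transport had 2 higher and 1 lower of 21, with Cyp7a1, the rate-limiting enzyme, at -0.33 (limma adjusted p = 0.83) and Hsd3b7 lower by 0.69. None of these 3 calls was made without either M520 array.

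Clock genes, which drive daily rhythms through a loop of activators and repressors, had 1 member higher and 2 lower of 18. Nr1d1, the repressor REV-ERB alpha, read 4.39 and 4.32 in M520, against 4.20, 7.51 and 8.42 as the lowest, median and highest of the other arrays. ACI was as low as M520, with a mean of 4.51, and the other 4 strains had means of 7.32 to 7.80. The difference from the mean was -2.68 ± 0.28 (SE; limma adjusted p = 0.00039), and from ACI -0.16 (limma adjusted p = 0.91). Nr1d2, its paralog, read 7.16 and 6.97 in M520, against 7.25, 8.03 and 9.35, and was lower by 1.20. Cry1, a repressor whose gene REV-ERB proteins silence, read 8.31 and 7.89, against 5.86, 6.98 and 8.12, and was higher by 1.18 with ACI at 7.95. Per3 (-1.23), Dbp (-0.94), Bmal1 (0.33), Per2 (-0.25) and Clock (0.27) did not pass the test. The time of day at which rats were killed is not given in the labels. Nr1d1 kept its call without either M520 array, Nr1d2 lost it without array 2 (limma adjusted p = 0.066) and Cry1 without array 1 (0.078).

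Apolipoproteins are the protein parts of the lipoprotein particles that the liver secretes. Of 22 apolipoprotein and lipoprotein genes 4 were lower and none higher, against 4.22% lower and 1.34% higher of all genes. Apoa2 read 13.37 and 13.46 in M520, against 13.78, 14.10 and 14.23, a difference of -0.64 ± 0.09 (SE; limma adjusted p = 0.0025), and no HS array was nearer to M520. Apoa1, the main protein of high-density lipoprotein, read 12.46 and 12.69, against 12.76, 13.36 and 13.71, and was lower by 0.69 (limma adjusted p = 0.023), a call lost without either M520 array or without the BN arrays. Apob and Apoe differed by 0.07 and -0.09 without a call. Without M520 array 1 none of the 4 apolipoprotein list members was called, and 1 was without array 2. Of 40 urea cycle and amino acid genes 5 were lower and none higher, led by Sdsl, a serine dehydratase-like enzyme, with 6.38 and 6.54 in M520, against 7.06, 7.39 and 7.75. Without M520 array 1, 1 member of this list was called lower and 1 higher, and without array 2, 1 was called lower. The urea cycle enzymes Cps1, Otc, Ass1 and Arg1 differed by 0.05 to 0.22 with no call. Of 10 periportal hepatocyte markers, a list that also holds Ass1 and Arg1, 4 were above 0 and 6 below, with a median of -0.32. Past the threshold 3 were lower (Cdh1 by 1.06, Aldh1b1 by 0.93 and Hal by 0.52), against 4.22% lower of all genes. None of 9 pericentral markers was called. No periportal marker was called without M520 array 1 and 2 were without array 2, while 1 was with the spread taken over all 58 arrays.

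Several central liver pathways held no call or almost none. None of 22 genes of cholesterol synthesis and uptake, 13 of gluconeogenesis, 21 of insulin signalling or 23 acute phase proteins passed the threshold, with medians of 0.05, -0.14, -0.07 and -0.05. Of 79 oxidative phosphorylation subunits 1 was higher, and of 47 cytosolic ribosomal protein genes 1 was lower, both under the share of all genes called in that direction. Of 28 genes of fatty acid and triglyceride synthesis 1 was higher and 1 lower. The lipogenic regulator Srebf1 and its targets Fasn and Scd differed by -0.11, -0.02 and 0.80 without a call, as did the fatty acid transporter Cd36 (1.23), the growth factor gene Igf1 (0.19), the gluconeogenic enzyme Pck1 (-0.11) and the insulin-responsive binding protein genes Igfbp1 (-0.76) and Igfbp2 (-0.85). Cd36 read 7.85 and 7.86 in M520, against 5.53, 6.44 and 7.76 as the lowest, median and highest of the other arrays, so that the groups did not overlap although the adjusted p was 0.084 (limma). A p that misses the threshold does not show that a gene was equal. In data simulated with this design, shifts of 0.5 log2 units were recovered in 31.3% of cases, of 1 unit in 83.6% and of 2 units in 100%. There 20 probe sets without a shift were called as well. The test against each strain recovered 0%, 55.2% and 92.4% of the same shifts. All strains had a common mean before the shifts, unlike the strains measured here.

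**Figure D5:**
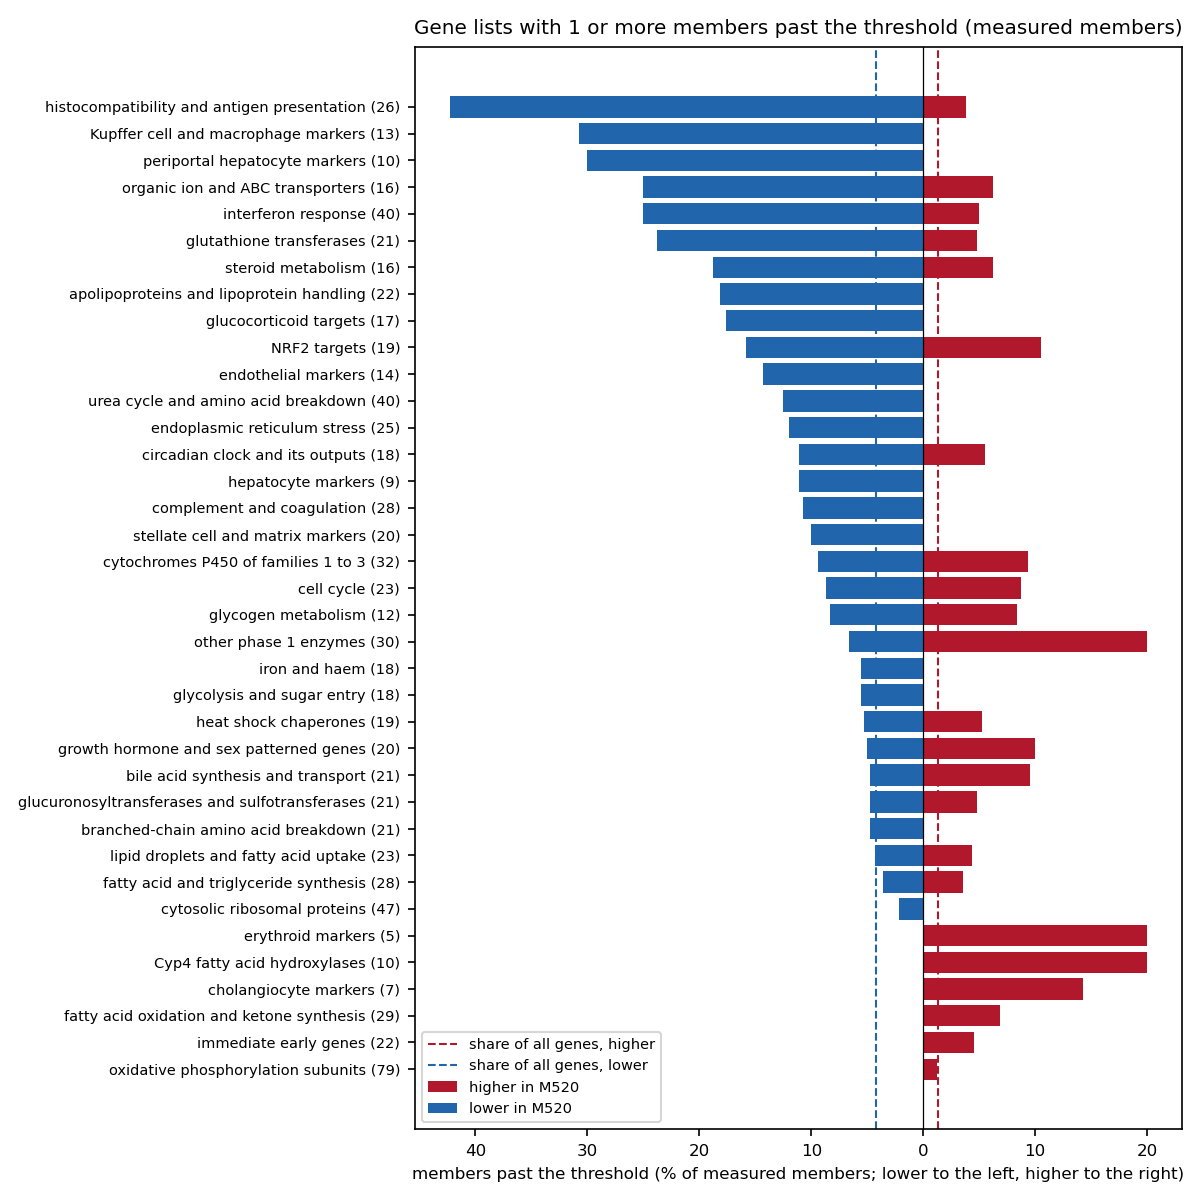
Share of measured members of each gene list past the threshold (x axis, %), higher in M520 to the right and lower to the left, with the number measured in brackets (y axis). Dashed lines mark the share of all genes, 1.34% higher and 4.22% lower. Histocompatibility genes reach furthest to the left, with 11 of 26 members, and lists without any call are left out.

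The outbred HS rats gave a further view of the 24 genes furthest from the other strains. For each gene the HS arrays were counted that lay nearer to the M520 mean than to the mean of the other 5 strains, with no test. No HS array was nearer to M520 for 3 of the 24 genes (Ndnf, Pyroxd2 and Trps1), and fewer than 10 were nearer for a further 13. For Phf19, a chromatin protein, 41 of 46 HS arrays lay nearer to M520, with 7.72 and 7.62 in M520, a median of 5.87 in the other strains and a median of 7.25 in HS rats. Stac3 had 14 HS arrays nearer to M520, and Tp53inp1 had 19.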

How the data were processed

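RNA from 58 rat livers was hybridised to Affymetrix 230_2 arrays after 2-cycle amplification, per the labels. The authors deposited log2 values for 31042 probe sets, with array medians of 5.33 to 5.39. The submitters' processing notes name Partek; background correction and normalization are not stated in any source used here. Of the probe sets, 20826 carry 1 gene symbol, 436 several and 9780 none. Each gene was represented by its probe set of highest mean over all arrays (14217 genes, 14167 found in GRCr8).

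One model was fitted to the 12 inbred arrays (limma 3.58.1 in R 4.3.3, lmFit and eBayes, 1 coefficient per strain, 6 residual degrees of freedom), giving M520 minus the mean of the other 5 strains and 5 pairwise differences. P-values were two-sided and adjusted by Benjamini-Hochberg over all probe sets, with a threshold of 0.05. The fit was tested on simulated data.

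Named genes were the 12 highest and 12 lowest called genes with both M520 arrays beyond all other inbred arrays, of each of 45 lists up to 4 called members (or 2 if none was called), the 8 genes of smallest p against every strain in each direction, called neighbours of these, and a set of metabolic and strain-variable genes. Other members and neighbouring genes were named after their values were seen. The members and lists were chosen with earlier results of these data known. Arrays have no read depth, and 2 arrays per strain limit the precision. No source used here states scan dates, so batches were not tested, and probe sequences were not compared with the M520 genome. Alternatives covered scaling, variance, array weights, probe set choice, a replicate block, and leaving out arrays or strains.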

Additional observations from a re-analysis of the deposited data

How the results depend on the processing

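Of 115 named genes past the threshold, 64 were past it in all 8 other fits of all arrays, 41 in all 12 fits that left out 1 array, and 79 in all 5 fits that left out 1 strain. The 1 reversed was Cyp4v3, with a difference of -0.0835 without the F344 arrays. Leaving out 1 array gave 230 to 2296 probe sets apart from the mean (118 to 982 higher, 112 to 1314 lower), 3 to 11 apart from every strain, and 208 to 821 apart from ACI, 634 to 2073 from BN, 268 to 4238 from BUF, 236 to 918 from F344 and 697 to 2203 from WKY. Of the 790 called genes, 103 and 146 were also called without M520 array 1 and 2. All fits that left out 1 array lost the same degrees of freedom, and why their counts differed was not tested. The test against every strain gave 3 probe sets without either ACI array, 6 and 7 without BN array 1 and 2, 6 without either WKY array, and 5 and 4 without M520 array 1 and 2. With 1 probe set per gene, 942 were called (233 higher), 5 apart from every strain, 369 from ACI, 1046 from BN, 383 from F344 and 1195 from WKY, since fewer were tested. With the spread taken over all 58 arrays, 6 were apart from every strain and 455 from ACI. Array weights gave 2247 (927 higher, 1320 lower), with 1887 from ACI, 2459 from BN and 1015 from BUF. Among brighter probe sets 1 was apart from every strain. The share of calls that were higher was 40.7%, 46.4% after quantile scaling, 36% after median centring, 24.7% with 1 probe set per gene, and 51.3% and 53.0% without M520 array 1 and 2. With a replicate block 1395 probe sets were called, and 8 apart from every strain. Deviations of same-numbered arrays correlated at -0.15 to 0.42 over 15 strain pairs (median -0.06, 3 over 0.1). With 1 deviation per strain, this cannot show whether the numbers pair the samples.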
